A study of Mus musculus with 8 samples.

Results

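The proteasome is the large protease that degrades ubiquitin-tagged proteins, and its RNA was described here across mouse liver ductal cells as they went from sorting into organoid culture. The members were the protein-coding genes with a numbered symbol of the Psma, Psmb, Psmc, Psmd or Psme series, without Psmb8 and Psmb9. This gave 41 of the 21697 protein-coding genes among 47729 identifiers in the deposited table. They comprised 14 constitutive core subunits (7 alpha and 7 beta), the inducible catalytic subunit Psmb10, 2 tissue-specific core subunits, 17 subunits of the regulatory particle (6 base ATPases, 3 other base subunits and 8 lid subunits), 3 base assembly chaperones and 4 activators.

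The cells were EpCAM+ cells sorted by FACS from healthy liver of adult male C57/B6 mice, with no transgene or allele named in the labels. The 8 libraries were 2 of freshly isolated cells (labelled 0 h), 2 of cells kept for 12 h in matrigel in organoid medium, 1 kept for 24 h, 1 with 48h in its title, and 2 of organoids grown for 6 days. The 48h library, called so after its title, carries 24 h in its other labels. EpCAM is a surface adhesion protein of bile duct epithelium, and a sort for it enriches for ductal cells but can carry over others. The labels do not say whether replicates came from separate animals or were pooled, so p-values rest on the spread among these libraries alone, and that spread may be technical.

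The core particle is a barrel of stacked alpha and beta rings. The alpha rings gate the entry, and within the beta rings Psmb5, Psmb6 and Psmb7 carry the chymotrypsin-like, caspase-like and trypsin-like active sites. The regulatory particle caps the barrel: its base holds a ring of ATPases that unfold substrates, and its lid removes ubiquitin. Other caps (activators) open the gate without ATP. When proteasome activity falls short, the transcription factor NRF1 (Nfe2l1) is known to raise many subunit genes together.

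Expression was given in RPKM, which scales the reads of a gene to its length and to the depth of its library, from between 13834821 and 28470230 effective reads per library. In the 39 members that were expressed, a library held between 124 and 26720 reads per gene (median 3866), estimated from the annotated exonic length. Counting error was not compared with the spread between libraries. The libraries differed in other ways. Genes at 1 RPKM or more numbered 8814 in the 24 h library and between 10605 and 11263 in the other 7. All 6 ductal markers were present in every group, with summed RPKM between 8722 and 20360. Spp1 made up most of this sum in every library, at between 5841 and 17735 RPKM. Krt19 ran from 162 RPKM at 24 h to 1920 in organoid replicate 1, and Krt7 from 59.5 in fresh replicate 2 to 810 in organoid replicate 1. Epcam lay between 513 and 1175 RPKM. The 6 hepatocyte markers summed to between 824 and 881 RPKM in fresh cells, to 37.5 and 49.6 at 12 h and to 7.03 and 10.7 in organoids. The 7 immune markers summed to between 274 and 287 RPKM in fresh cells, 118 and 145 at 12 h and 14.9 and 27.6 in organoids. Most of that sum in fresh cells was Cd74, at 257 and 254 RPKM, while Cd3e was listed at 0. Ptprc was at 0.0143 and 0 RPKM in fresh cells, Cd79a at 0.135 and 0.0723 and Lyz2 at 2.07 and 1.89. Csf1r was at 5.21 and 10.9 RPKM there and Cd68 at 21.7 and 7.57. Endothelial markers summed to at most 1.72 RPKM and mesenchymal markers to at most 12.6 RPKM in any library. In bulk RNA, fewer cells of a type and less RNA per cell cannot be told apart. The part of carried-over cells in the results below was not tested.

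Promoters of 4 subunit genes show the sequence from which these RNAs start. Psmb5 and Psmd10 had the smallest adjusted p-values in organoids, Psmb6 differed most between the organoid libraries among core genes, and Psmd4 was among the regulatory subunits with the smallest adjusted p at 12 h. Each line gives the 250 bases before the RefSeq start, 5′ to 3′ on the gene's strand, from GRCm38.p6. Capitals mark matches on either strand to the core of the antioxidant response element (TGACNNNGC), the CCAAT box (CCAAT) or an ETS-type site (CCGGAAG). The windows lie at chr14:54617996-54618245 (minus strand) for Psmb5, chr11:70525107-70525356 (plus strand) for Psmb6, chr3:95042615-95042864 (minus strand) for Psmd4 and chrX:140956712-140956961 (minus strand) for Psmd10.
Psmb5: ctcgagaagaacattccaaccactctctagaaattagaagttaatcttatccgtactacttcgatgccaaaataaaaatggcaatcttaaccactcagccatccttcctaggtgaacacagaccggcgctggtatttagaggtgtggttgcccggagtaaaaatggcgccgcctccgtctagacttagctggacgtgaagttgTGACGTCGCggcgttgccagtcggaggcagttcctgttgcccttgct
Psmb6: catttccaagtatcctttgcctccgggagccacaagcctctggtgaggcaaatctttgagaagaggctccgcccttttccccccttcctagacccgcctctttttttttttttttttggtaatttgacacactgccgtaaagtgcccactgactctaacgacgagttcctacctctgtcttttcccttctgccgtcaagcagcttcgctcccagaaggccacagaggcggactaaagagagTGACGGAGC
Psmd4: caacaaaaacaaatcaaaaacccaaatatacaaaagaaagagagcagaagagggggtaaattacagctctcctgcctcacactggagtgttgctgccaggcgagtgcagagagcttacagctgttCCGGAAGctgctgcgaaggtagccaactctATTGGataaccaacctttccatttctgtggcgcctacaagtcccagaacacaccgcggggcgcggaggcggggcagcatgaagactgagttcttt
Psmd10: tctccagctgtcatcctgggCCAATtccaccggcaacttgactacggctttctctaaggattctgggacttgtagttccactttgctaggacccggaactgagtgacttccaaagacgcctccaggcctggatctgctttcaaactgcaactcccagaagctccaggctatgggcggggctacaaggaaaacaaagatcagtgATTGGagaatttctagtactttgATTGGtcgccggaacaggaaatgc

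In Psmb5 the capitals are TGACGTCGC, from 47 to 39 bases before the start, and in Psmb6 they are TGACGGAGC, from 9 bases before the start to the last base. Psmd4 holds an ETS-type match from 125 to 119 bases before the start and the CCAAT box on the opposite strand, from 95 to 91. Psmd10 holds 3 CCAAT boxes. RefSeq gave a window for 34 of the 41 members. Of those, 11 held an ETS-type match (32.4%), against 16.2% of the 9369 genes with a window that were tested for expression and 7.83% of all 27025 genes with one. By role, the ETS-type match stood in 8 of 14 base and lid promoters (Psmc1, Psmc2, Psmc6, Psmd2, Psmd4, Psmd6, Psmd11 and Psmd12) and in 1 of 11 core promoters, Psma6. The CCAAT box stood in 13 of 34 members (38.2%), near the 40.6% of tested genes. By role it stood in 6 of 11 core promoters and in 4 of 14 base and lid promoters. The antioxidant response element core stood in 5 of 34 members (14.7%), against 14.025% of tested genes. No matches overlapped in the member windows. These matches are descriptions of letters in the window, and binding was not measured.

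Of the 41 members, 39 passed the filter on low values, at least 1 RPKM in at least 2 libraries, and all 39 were at 1 RPKM or more in every library with 1 exception, Psme4 at 24 h. The 2 that did not pass were the tissue-specific subunits. Psma8, the alpha subunit of the testis, was at 0.249 RPKM in fresh replicate 2 and 0.0308 RPKM at 24 h and was listed at 0 in the other 6 libraries. Psmb11, the beta subunit of the thymic cortex, was listed at 0 in all 8. Its gene is a neighbour of Psmb5 on chromosome 14 (54621433-54629556 and 54614119-54618022 on GRCm38), and Psmb5 was between 39.4 and 156 RPKM.

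**Figure D1:**
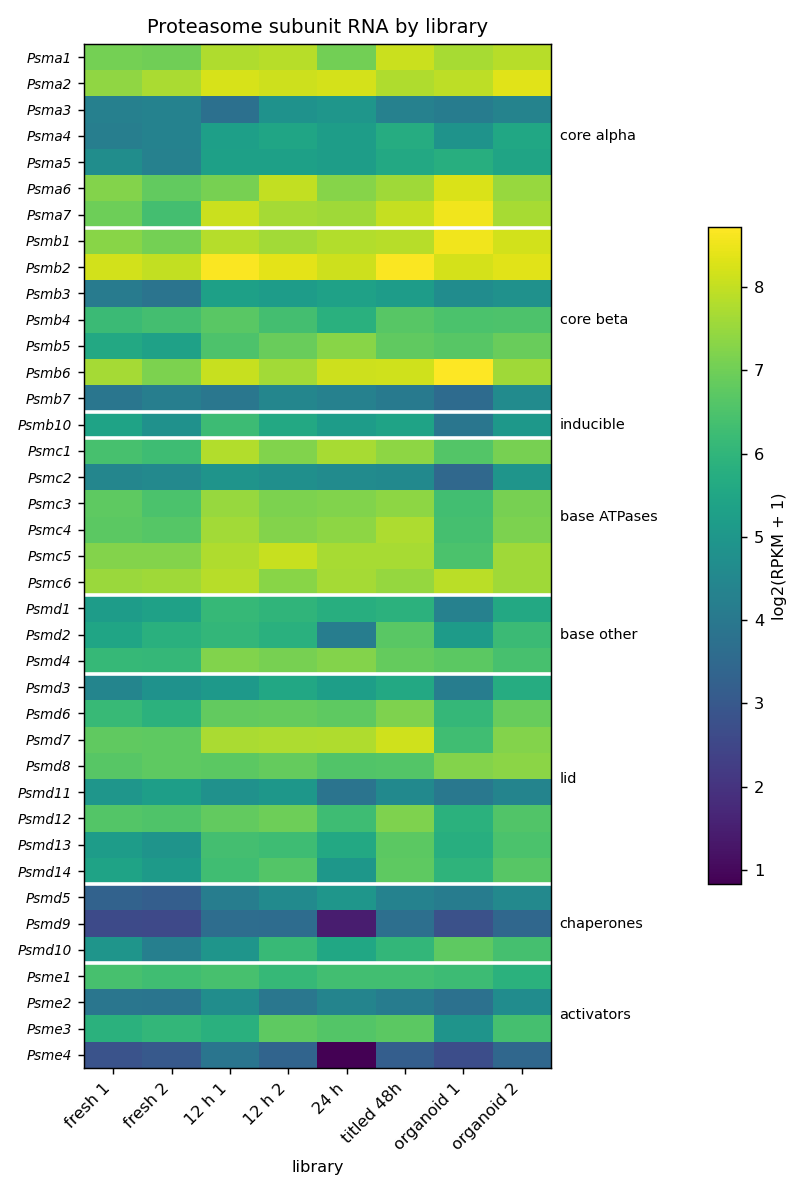
Level of each of the 39 expressed subunit genes (rows, grouped by role) in each of the 8 libraries (columns), as log2(RPKM + 1) on the colour scale. Rows keep their colour across libraries more than columns do, Psmb2 being high throughout and Psmd9 and Psme4 low; the darkest cells are Psme4 and Psmd9 at 24 h.

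Subunits that are present in equal number in the assembled particle did not have equal RNA. In fresh replicate 1 the core ranged from 14.2 RPKM for Psmb7 to 288 RPKM for Psmb2, a 20.3-fold span, and the span was between 15.8-fold and 38.4-fold across the 8 libraries. Base and lid subunits spanned between 8.57-fold and 23.5-fold. The order of the 39 genes was alike in all libraries, with a Spearman correlation across genes between 0.817 and 0.979 over the 28 pairs of libraries (median 0.920). Genes are not independent replicates, and each pair shares the same length annotation. Exonic length, by which RPKM divides, ran from 899 to 8382 bases. Among the 17 base and lid genes the longer ones had the lower mean RPKM (Spearman −0.78 across genes), while in the core the value was −0.14.

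The 39 genes together took 0.806% and 0.775% of summed RPKM in the fresh libraries. The share was 1.25% and 1.19% at 12 h, 1.11% at 24 h, 1.29% in the 48h library and 0.908% and 1.18% in the organoids. Both fresh libraries were thus below the other 6. The lowest group mean fell in fresh cells for 22 of the 39 genes, against 28.5% of all genes tested. The highest was in the 48h library for 15 of the 39, against 21.3% of all genes. Fresh cells held it for 2, Psmd11 and Psme1, against 17.8% of all genes. The 24 h library was highest for 9 (22.6% of all genes) and lowest for 7 (36.1%). For the 24 h and 48h libraries this is the value of 1 library, set against means of 2.

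At 12 h most subunit genes stood above their fresh level, by at most 2.47-fold, but 0 of 39 passed the test. The catalytic subunit Psmb5, the core subunit Psmb3 and the lid subunit Psmd13 had the largest shifts. The comparison asks how the transcriptome of ductal cells had changed after the first hours of culture. It used limma on log2(RPKM + 1) over 12900 genes with Benjamini-Hochberg adjustment, in which 6.81% of all genes passed at 0.05 (3.09% higher and 3.72% lower). At an unadjusted p under 0.05 there were 12 of 39 members, near the 27.1% of all genes. The smallest adjusted p among members was 0.0665, for Psmb3. Fitted changes were above 0 for 37 of 39 members, against 59.1% of all genes, with a median of 0.69 against 0.24 for all genes and 0.40 for genes averaging 5 RPKM or more. Both 12 h libraries were above both fresh libraries for 29 members (38.6% of all genes) and below both for 0 (23.6%). Among genes averaging 5 RPKM or more these shares were 47.7% and 20.1%, and 64.9% had fitted changes above 0.

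Other genes of like length were shifted as well. Among genes averaging 5 RPKM or more, put into 5 equal groups by exonic length, the median log2 change at 12 h was 0.60 in the shortest group (up to 2139 bases), 0.52 in the next (up to 3260 bases) and 0.26 in the longest. Of the 39 members, 11 and 14 lay in those 2 shortest groups, where their median changes were 0.66 and 0.80. The other 3 groups held 6, 4 and 4 members, with medians of 0.22, 0.44 and 0.91, against 0.37, 0.29 and 0.26 for all genes. In organoids the medians of all genes were 0.77 and 0.52 in those groups, and those of the members 0.51 and 0.46. When each library was centred on its median, 28 of 39 members were above 0, with a median of 0.33. After quantile normalization the count was 31 and the median 0.51. The count of passing members depended on the libraries in the fit. It was 4 (Psmb3, Psmd4, Psmd7 and Psmd13) without either organoid replicate 1 or organoid replicate 2, which enter only the estimate of the spread, and 3 (Psmd4, Psmd7 and Psmd13) with only the groups compared. It was 0 without either fresh or either 12 h library. With library weights it was 2, Psmb3 and Psmb5.

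**Figure D2:**
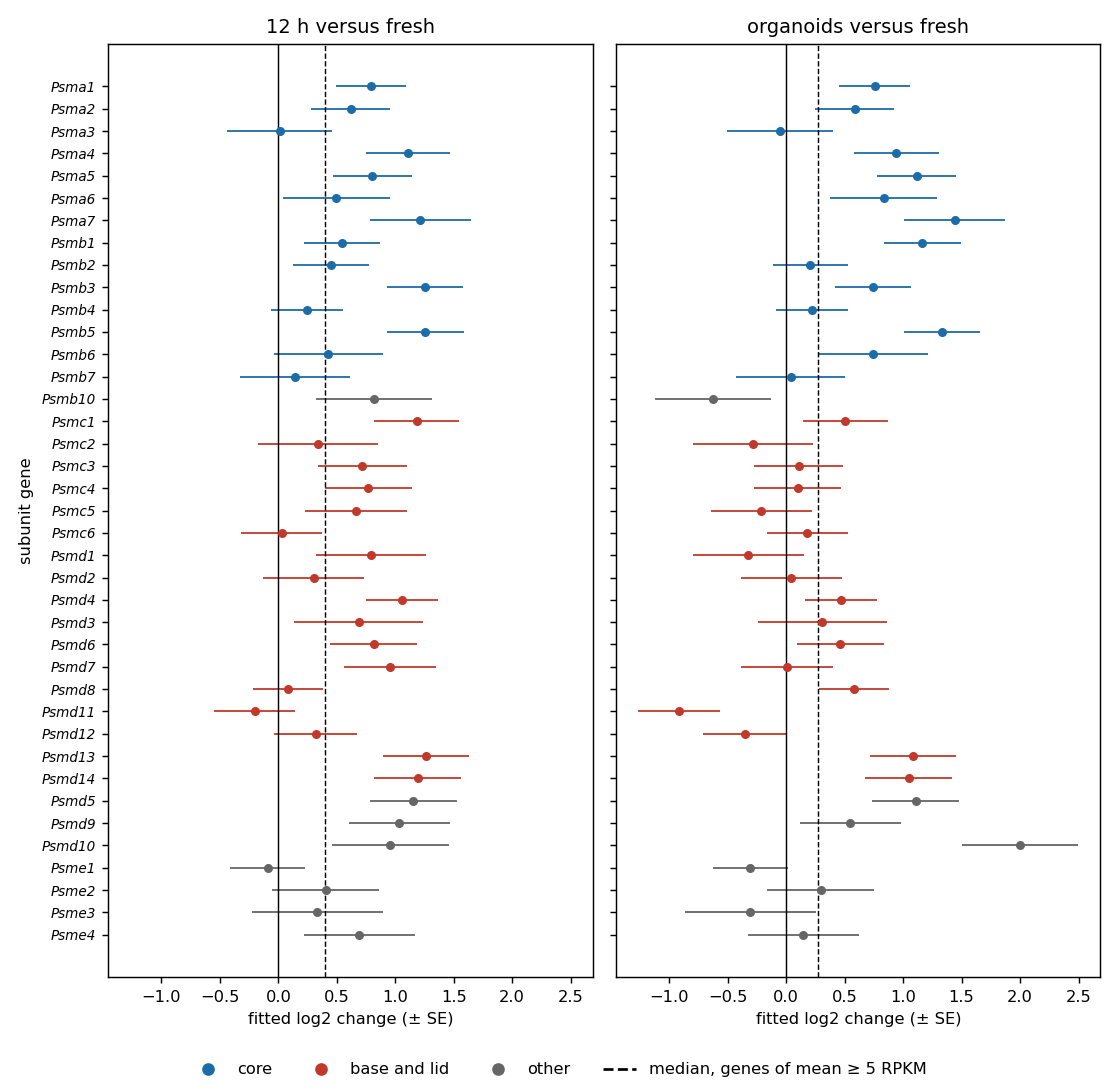
Fitted log2 change of each expressed subunit gene (points, bars ± SE) at 12 h (left) and in organoids (right) relative to fresh cells, coloured by role, with a solid line at 0 and a dashed line at the median of all genes averaging 5 RPKM or more (0.40 and 0.27). At 12 h 37 of 39 points lie right of 0; in organoids the core points lie mostly right of the dashed line and the base and lid points on both sides of it.

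Within the core, the 3 constitutive active-site subunits were not alike. Psmb5, the chymotrypsin-like subunit, was at 46.7 and 39.4 RPKM in fresh cells, 89.8 and 120.1 at 12 h, 156 at 24 h, 109.5 in the 48h library and 99.7 and 120.2 in organoids. All 6 cultured libraries were above both fresh ones. The microRNA gene Mir686 covers 12.1% of its exonic bases on the same strand. Its fitted log2 change was 1.26 (SE 0.33, limma adjusted p = 0.0680) at 12 h and 1.33 (SE 0.33, adjusted p = 0.0513) in organoids.

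Psmb6, the caspase-like subunit, was at 199 and 143 RPKM in fresh cells, 264 and 196 at 12 h, 277 at 24 h, 281 in the 48h library and 419 and 191 in organoids. Fresh and 12 h values overlapped, and organoid replicate 2 lay within the fresh range. The 2 Psmb6 pseudogenes in the table reached at most 1.85 RPKM, and no source used here says how reads were shared among copies. Psmb7, the trypsin-like subunit, was at 14.2 and 17.4 RPKM in fresh cells, 14.4 and 20.96 at 12 h, 18.4 at 24 h, 15.5 in the 48h library and 10.9 and 23.7 in organoids. These groups overlapped throughout, with fitted changes of 0.14 (SE 0.47, adjusted p = 0.881) at 12 h and 0.04 (SE 0.47, adjusted p = 0.969) in organoids. Exons of Nek6 on the other strand cover 11.8% of the exonic bases of Psmb7, and whether counting used strand is not given.

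Other beta subunits ranged between these. Psmb3, a structural beta subunit, stood at 16.2 and 13.7 RPKM in fresh cells, 38.5 and 35.2 at 12 h, 39.5 at 24 h, 35.5 in the 48h library and 24.2 and 27.0 in organoids. The organoid values lay between those of fresh and 12 h cells. Psmb1 was at 157 and 134 RPKM in fresh cells, 229 and 196 at 12 h, 225 at 24 h, 234 in the 48h library and 370.3 and 288 in organoids. Both organoid libraries were above all others for this gene, with a fitted log2 difference from fresh cells of 1.16 (SE 0.33, adjusted p = 0.0711). Psmb2 and Psmb4 had fitted changes between 0.21 and 0.45 in both comparisons with fresh cells.

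Among the alpha ring genes all 7 had fitted changes above 0 at 12 h, with a median of 0.79. Psma7 had the largest, from 126 and 80.1 RPKM in fresh cells to 272 and 202 at 12 h, then 191 at 24 h, 259.8 in the 48h library and 369.7 and 203 in organoids. Every cultured library was above both fresh ones. Psma3 was the alpha gene with the smallest change, 0.01 on the log2 scale (SE 0.45), with 18.0 and 19.1 RPKM in fresh cells and 12.4 and 28.0 at 12 h. At 12 h 0 of the 7 alpha genes passed by limma, where 6.81% of all genes did. At an unadjusted p under 0.05 there were 3, against 27.1% of all genes.

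Psmb10 replaces Psmb7 in the immunoproteasome, the form that interferon induces for antigen presentation. It was at 41.1 and 27.0 RPKM in fresh cells, 74.6 and 47.4 at 12 h, 35.5 at 24 h, 41.7 in the 48h library and 14.003 and 32.1 in organoids. Both organoid libraries were below both 12 h libraries, and fresh and organoid values overlapped. Its change from 12 h to organoids was the lowest of all members, −1.44 (SE 0.50, adjusted p = 0.189). Its partner Psmb8 fell from 29.9 and 24.7 RPKM in fresh cells to 0.528 and 3.25 in organoids (log2 change −3.47, SE 0.57, adjusted p = 0.0193). Of 6 genes of the interferon-induced presentation pathway, 0 passed at 12 h, where 6.81% of all genes did. At an unadjusted p under 0.05 there was 1 of 6, against 27.1% of all genes. In organoids 3 were lower, where 4.94% of all genes were. Besides Psmb8 these were Tap1, a subunit of the peptide transporter, from 17.8 and 19.4 RPKM to 2.93 and 3.72 (adjusted p = 0.0292), and Nlrc5, an activator of antigen presentation genes, listed at 0 in both organoid libraries after 4.295 and 4.27 RPKM (adjusted p = 0.0188). None of these 3 calls held without fresh replicate 1, fresh replicate 2 or organoid replicate 1. The fits without a fresh library hold 1 fresh library each, and the loss there is not particular to these genes. Of the immune markers, Cd74 was also lower in organoids, at 1.90 and 3.44 RPKM, while Cd68 was at 21.7 and 7.57 RPKM in fresh cells and 22.1 and 7.004 in organoids. Their part in these values was not tested.

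The base ATPases unfold the substrate and thread it into the core. At 12 h none of the 6 passed, where 6.81% of all genes did. At an unadjusted p under 0.05 there was 1 of 6, against 27.1% of all genes. All 6 had fitted changes above 0 at 12 h, between 0.03 and 1.18. Psmc1 had the largest, from 83.8 and 76.0 RPKM in fresh cells to 224 and 148 at 12 h, followed by 206 at 24 h, 167 in the 48h library and 95.3 and 136 in organoids. Its organoid values lay above both fresh and below both 12 h libraries. Psmc6, in contrast, was at 183 and 192 RPKM in fresh cells and at 234 and 156 at 12 h, with overlap.

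Psmd4, a base subunit that binds ubiquitin chains, was at 68.4 and 66.6 RPKM in fresh cells, 148 and 136 at 12 h, 152 at 24 h, 115 in the 48h library and 105 and 83.7 in organoids. All cultured libraries exceeded the fresh ones, with a fitted log2 change of 1.06 at 12 h (SE 0.31, adjusted p = 0.0862) and 0.47 in organoids (SE 0.31, adjusted p = 0.359). Psmd2, the large scaffold of the base, was at 42.9 and 55.5 RPKM in fresh cells and 65.6 and 55.6 at 12 h, then at 17.1 at 24 h and 102 in the 48h library. Those 2 single libraries held its lowest and highest values.

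Of the 8 lid genes 7 had fitted changes above 0 at 12 h. Psmd14, the deubiquitinase of the lid, was at 41.0 and 34.1 RPKM in fresh cells, 77.1 and 97.2 at 12 h, 31.3 at 24 h, 106 in the 48h library and 61.2 and 100.1 in organoids. Its 24 h value was below both fresh libraries, and the other 5 cultured libraries were above them. Psmd13 was at 35.3 and 28.9 RPKM in fresh cells and 80.7 and 75.1 at 12 h, the largest fitted change of any member there (1.26, SE 0.37, adjusted p = 0.0876). Exons of Sirt3 on the other strand cover 10.1% of its exonic bases. Psmd7, which pairs with Psmd14, was at 110.4 and 107 RPKM in fresh cells, 209 and 214 at 12 h and 78.3 and 152 in organoids, the last 2 on either side of the fresh values.

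Psmd11 went the other way from most. This lid scaffold was at 30.2 and 36.8 RPKM in fresh cells, 26.9 and 30.9 at 12 h, 13.5 at 24 h, 22.8 in the 48h library and 14.9 and 19.7 in organoids. Fresh and 12 h values overlapped, and the 4 later libraries were below all of them. It had the lowest fitted change both at 12 h (−0.20, SE 0.35, adjusted p = 0.754) and in organoids relative to fresh cells (−0.92, SE 0.35, adjusted p = 0.138).

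The 3 chaperones help to assemble the base and leave the finished particle. All 3 had fitted changes above 0 at 12 h and in organoids, each relative to fresh cells. In both comparisons 0 of 3 passed, where 6.81% and 10.1% of all genes did. In both, 2 of 3 were at an unadjusted p under 0.05, against 27.1% and 29.5% of all genes. Psmd10 (gankyrin), which also binds regulators of RB and p53, was at 29.5 and 17.7 RPKM in fresh cells, 29.4 and 69.9 at 12 h, 44.6 at 24 h, 64.6 in the 48h library and 107 and 83.4 in organoids. Both organoid libraries were above all others, and the difference from fresh cells was the largest of any member (4.04-fold, log2 2.0, SE 0.50, adjusted p = 0.0523). Psmd5 was at 8.81 and 8.07 RPKM in fresh cells, 17.03 and 23.4 at 12 h, 30.3 at 24 h, 19.0 in the 48h library and 16.6 and 22.3 in organoids, above fresh cells in every cultured library. Psmd9 was at 5.10 and 4.88 RPKM in fresh cells, 11.4 and 11.1 at 12 h, 1.72 at 24 h, 12.1 in the 48h library and 5.90 and 10.1 in organoids. Exons of the lincRNA Gm26745 on the other strand cover 25.5% of the exonic bases of Psmd9.

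The activators had the smallest shifts at 12 h, with a median of 0.37. Psme1, a subunit of the interferon-inducible PA28 ring, was at 84.9 and 76.8 RPKM in fresh cells, 83.7 and 68.5 at 12 h, 78.9 at 24 h, 79.1 in the 48h library and 73.5 and 57.6 in organoids. Fresh, 12 h and single-library values lay close together, and both organoid values were below both fresh ones. Psme2, its partner in the ring, was far lower per length, at 14.08 and 13.96 RPKM in fresh cells, 24.7 and 14.4 at 12 h, 19.8 at 24 h, 16.7 in the 48h library and 12.5 and 24.1 in organoids. The near copy Psme2b was between 0.437 and 3.48 RPKM.

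Psme3, which forms the nuclear activator PA28 gamma, was at 57.5 and 65.5 RPKM in fresh cells, 56.3 and 107 at 12 h, 96.5 at 24 h, 104 in the 48h library and 29.2 and 83.3 in organoids. Replicates at 12 h and in organoids lay on both sides of the fresh values. Psme4, the large activator PA200, was at 6.12 and 7.14 RPKM in fresh cells, 13.7 and 9.29 at 12 h, 0.770 at 24 h, 8.15 in the 48h library and 5.40 and 10.1 in organoids. None of the 4 passed in any comparison by limma, and none was at an unadjusted p under 0.05. Of all genes, 6.81% passed at 12 h and 10.1% in organoids relative to fresh cells, and 2.0% between 12 h and organoids. At an unadjusted p under 0.05 these shares were 27.1%, 29.5% and 19.1%, and with 4 genes a count of 0 says little.

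In the fit over both organoid libraries, most core genes stood above their fresh level, while base and lid genes lay on both sides of it. Again 0 of 39 members passed, where 10.1% of all genes did (5.15% higher and 4.94% lower), and 11 of 39 were at an unadjusted p under 0.05, near the 29.5% of all genes. The fitted change was above 0 for 13 of 14 core genes with a median of 0.75, and for 12 of 17 base and lid genes with a median of 0.11. Over all 39 members it was above 0 for 30, against 56.1% of all genes, and the median was 0.31, against 0.17 for all genes and 0.27 for genes averaging 5 RPKM or more. Both organoid libraries were above both fresh ones for 19 members (38.1% of all genes) and below both for 2 (26.6%), Psmd11 and Psme1. Among genes averaging 5 RPKM or more these shares were 42.1% and 24.4%, and 58.7% had fitted changes above 0. The difference between core and base and lid was not tested, and the 2 organoid libraries differed in it. The median RPKM of base and lid genes was 69.2 and 66.6 in fresh cells, 66.6 in organoid replicate 1 and 100.1 in replicate 2. That of core genes was 99.3 and 80.7 in fresh cells and 152 and 149 in organoids. When the test was limited to genes averaging 5 RPKM or more, 2 members passed, Psmb5 and Psmd10. One member passed without either 12 h replicate 1 or 12 h replicate 2 (Psmd10 each time), and 1 without organoid replicate 2 (Psmb1). Without organoid replicate 1, 0 passed and 36 of 39 were above 0, with a median of 0.56. Without organoid replicate 2, 22 of 39 were above 0, with a median of 0.21. After centring on library medians 25 of 39 were above 0 (median 0.16), and after quantile normalization 21 of 39 (median 0.13).

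The 2 organoid libraries disagreed on the balance between particles. Summed over genes, core RNA was 2533 RPKM in organoid replicate 1 and 2116 in replicate 2. Base and lid RNA was 1251 RPKM in replicate 1 and 1810 in replicate 2, so that the ratio of core to base and lid was 2.03 in replicate 1 and 1.17 in replicate 2. In the other 6 libraries the ratio lay between 0.985 and 1.11. By medians in place of sums it was 2.28 in organoid replicate 1 and between 1.07 and 1.52 in the other 7. Organoid replicate 1 thus stood apart from the other 7 libraries, and replicate 2 lay close to the rest.

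**Figure D3:**
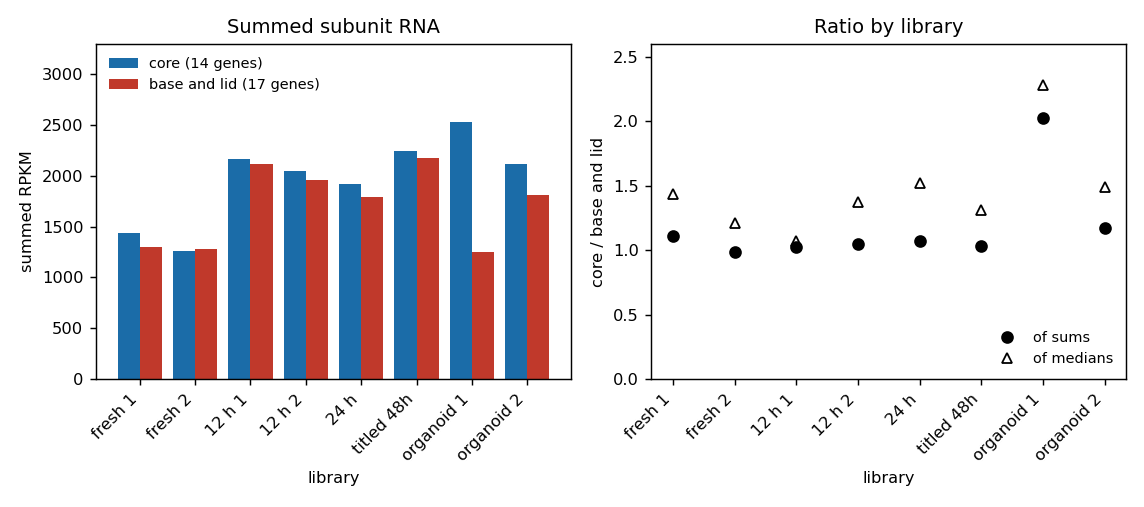
Left, RPKM summed over the 14 core genes and the 17 base and lid genes in each library; right, the ratio of core to base and lid from the sums (filled circles) and from the medians (open triangles). Organoid replicate 1 stands alone at 2.03, with the other 7 libraries between 0.985 and 1.17 by sums.

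In organoid replicate 1, 2 of 17 base and lid genes were above replicate 2, Psmc6 and Psmd4, against 5 of 14 core genes, namely Psma5, Psma6, Psma7, Psmb1 and Psmb6. Replicate 1 was likewise the higher for 3872 of all 12900 genes tested, and for 2143 of the 7316 averaging 5 RPKM or more. Among core, base and lid genes the largest differences downwards were those of Psmd3, at 16.9 against 51.1 RPKM, and Psmc2, at 10.1 against 29.5 RPKM. The largest upwards was that of Psmb6. Across all genes averaging 5 RPKM or more, replicate 1 was lower by a median of −0.49 on the log2 scale, and this depended on length. The median was 0.07 in the shortest of the 5 length groups and between −0.65 and −0.43 in the other 4. Summed RPKM was 446034 in replicate 1 and between 357129 and 369701 in the other 7 libraries. Core genes were somewhat shorter than base and lid genes, with median exonic lengths of 2335 and 2820 bases. Within the members, length and the difference between the organoid libraries had a Spearman correlation of −0.28 over 39 genes. The part of length in the shifted ratio was not tested.

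**Figure D4:**
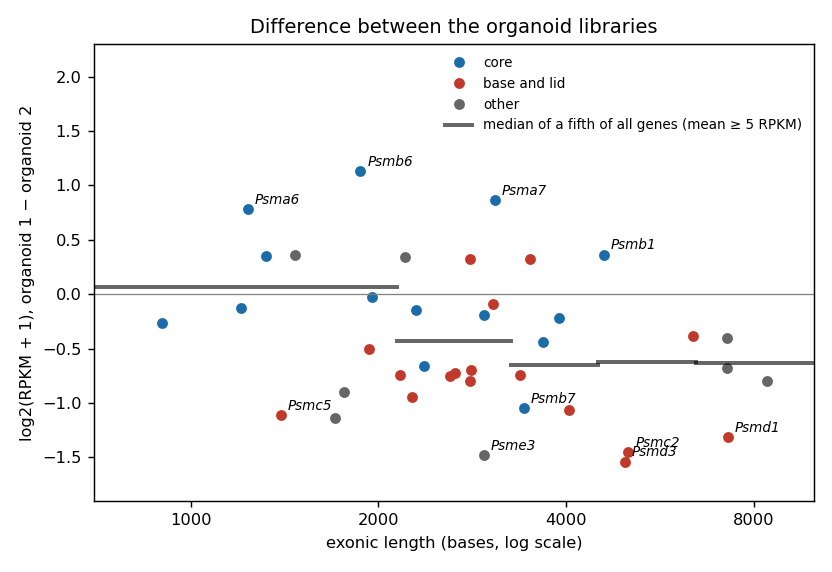
Difference in log2(RPKM + 1) between organoid replicates 1 and 2 for each expressed member (points, coloured by role) against exonic length on a log axis, with the median over all genes of each of the 5 length groups as bars. Psmb6, Psma7 and Psma6 lie above the bars and Psmd3, Psmc2 and Psme3 below them, while the bars themselves drop from 0.07 to between −0.65 and −0.43.

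Between 12 h and organoids, 0 of 39 members passed, where 2.0% of all genes did (1.38% higher and 0.620% lower), and 2 were at an unadjusted p under 0.05, against 19.1% of all genes. The fitted change was above 0 for 9 members (45.4% of all genes), 6 of them core genes, and 13 members were lower in both organoid libraries than in both 12 h libraries (24.1% of all genes), while 4 were higher in both (20.8%). Among genes averaging 5 RPKM or more these shares were 42.0%, 27.5% and 18.2%, in the same order. The median was −0.03 in the core and −0.61 in base and lid. By library, the median RPKM of base and lid genes was 111 and 115 at 12 h, 66.6 in organoid replicate 1 and 100.1 in replicate 2. The largest upward difference was that of Psmd10, 1.04 (SE 0.50, adjusted p = 0.317). Without organoid replicate 1, 19 of 39 members were above 0 and the median of all members moved from −0.22 to −0.0042. Without organoid replicate 2 the median was −0.55. The comparisons share libraries with those above and are not independent of them.

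The single libraries had no replicate and were not tested. At 24 h, 27 members were above both fresh libraries (44.0% of all genes) and 8 below both (47.4%), namely Psmb4, Psmd2, Psmd8, Psmd9, Psmd11, Psmd12, Psmd14 and Psme4. Among those, Psme4, Psmd9 and Psmd11 stood at 0.770, 1.72 and 13.5 RPKM at 24 h. This was the library with the fewest genes at 1 RPKM, and the part of that in the low values was not tested. In the 48h library, 33 members were above both fresh libraries (55.1% of all genes) and 3 below both (33.4%), namely Psmc6, Psmd8 and Psmd11. Its median difference from fresh cells over the members was 0.76, against 0.45 for all genes averaging 5 RPKM or more.

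Genes that build and serve the proteasome were read from lists of neighbours in the pathway. Of the 5 assembly factors found in the table, all 5 had fitted changes above 0 at 12 h and in organoids, with medians of 1.05 and 1.45, and 1 passed in organoids (10.1% of all genes). That gene was Psmg2, a chaperone of the alpha ring, which rose from 15.7 and 14.5 RPKM in fresh cells to 39.2 and 70.8 in organoids (log2 1.74, SE 0.40, adjusted p = 0.0431). This call was lost when any 1 of the 6 replicated libraries was left out. The fits without a fresh library hold 1 fresh library each, and the loss there is not particular to Psmg2. Pomp, the maturation factor of the core, was at 20.2 and 18.5 RPKM in fresh cells, 42.8 and 39.4 at 12 h, 37.7 at 24 h, 50.6 in the 48h library and 43.1 and 40.4 in organoids. All 6 cultured libraries were above both fresh ones, by 2.12-fold at 12 h and 2.16-fold in organoids (limma adjusted p = 0.0909 and 0.0758).

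Of 10 other subunits and regulators, 1 passed at 12 h and 2 in organoids, 1 in each direction. With 6.81% and 10.1% of all genes passing, these counts are near the background. Uchl5, a deubiquitinase that docks on the regulatory particle, rose from 8.93 and 9.66 RPKM in fresh cells to 29.4 and 34.6 at 12 h and 33.8 and 44.1 in organoids. The log2 changes were 1.68 (SE 0.33, adjusted p = 0.0394) and 1.94 (SE 0.33, adjusted p = 0.0213). The 12 h call was lost without either fresh or either 12 h library, and the organoid call without either fresh library or organoid replicate 1. The loss without a fresh library is not particular to Uchl5. Adrm1, the receptor on the base that holds Uchl5, was at 10.4 and 11.3 RPKM in fresh cells, 17.6 and 8.90 at 12 h and 3.02 and 7.87 in organoids. Zfand5, a zinc finger protein that stimulates the proteasome, was at 74.9 and 59.4 RPKM in fresh cells. It was already lower at 12 h, at 24.7 and 25.1 RPKM (limma adjusted p = 0.0541). Values were 17.1 RPKM at 24 h, 17.6 in the 48h library and 22.8 and 24.1 in organoids (adjusted p = 0.0393 relative to fresh cells). The organoid call was lost when any 1 replicated library other than organoid replicate 2 was left out. Here too the loss without a fresh library is not particular to the gene. Psmf1, an inhibitor of the core, was at 6.75 and 7.78 RPKM in fresh cells, 20.3 and 14.3 at 12 h and 8.01 and 12.8 in organoids, with an adjusted p of 0.143 at 12 h.

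Of 4 genes that control subunit transcription, 0 passed at 12 h or in organoids relative to fresh cells, where 6.81% and 10.1% of all genes did. At an unadjusted p under 0.05 there were also 0, against 27.1% and 29.5% of all genes. Between 12 h and organoids 0 passed, and 1 of 4 was at an unadjusted p under 0.05, against 19.1% of all genes. That gene was Ddi2, at 3.20 and 4.02 RPKM in fresh cells, 7.37 and 13.1 at 12 h and 0.878 and 3.55 in organoids. With 4 genes, these counts say little of the list. Nfe2l1 was at 18.7 and 23.1 RPKM in fresh cells, 18.1 and 15.5 at 12 h, 13.7 at 24 h, 11.8 in the 48h library and 8.34 and 23.4 in organoids, with overlap between organoids and fresh cells. NRF1 protein is controlled by its own degradation, which RNA does not show.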

How the data were processed

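RNA of 8 libraries was measured by Smart-seq2 with Nextera XT tagmentation, per the labels' protocols. The authors deposited 1 RPKM value per gene and library, with GRCm38 and edgeR per the submitters' processing notes. No source used here names the aligner, counter, annotation release, strand setting or any scaling factor. GENCODE M21 named 47310 of 47729 identifiers. The members and lists were chosen with earlier results of these data known. Low RPKM values of genes with 1 exon stepped in whole reads (95.2% to 96.2% within 0.01), which gave the effective reads per library. For a gene of 2 kb listed at 0, up to 3 reads (0.0527 to 0.108 RPKM) remain possible, by counting error only.

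Values were taken as log2(RPKM + 1), which understates changes of low genes. The 12900 genes reaching 1 RPKM in 2 or more libraries were fitted with limma 3.58.1 in R 4.3.3, with 1 coefficient for each of 5 groups, no covariate and eBayes with trend (3 residual and 3.65 prior degrees of freedom). Two-sided tests were used, with Benjamini-Hochberg adjustment over all genes and a threshold of 0.05. The procedure was also run on simulated data with independent noise around the mean of each gene. Those data lacked the dependence on length seen between the organoid libraries, so no conclusion is drawn from them. Named genes were fixed members of each role, those with the highest and lowest fitted change in a comparison, members that passed, and of the pathway lists Nfe2l1, Pomp, Psmf1, Adrm1 and those that passed. Ddi2, Psma3, Psma7, Psmb1, Psmb2, Psmb3, Psmb4, Psmc1, Psmc2, Psmc6, Psmd2, Psmd3, Psmd4 and Psmd7 lie outside that rule and were chosen after their values were seen. Psma8 and Psmb11 were left out of the tests by the filter. Alternatives were another pseudocount, 2 filters, 2 scalings, only the groups compared, library weights, a replicate block and each replicate left out. Promoter sequences came from RefSeq on GRCm38.p6. Of the members, 10 share between 0.342% and 25.5% of their exonic bases with another gene. Results of some pathway genes are not reported here.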

Additional observations from a re-analysis of the deposited data

How the results depend on the processing

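At 12 h the count of members passing was 0 with log2(RPKM + 0.1), with either filter, after centring or quantile normalization and with the replicate block, and it became 3 with only the groups compared and 2 with library weights. Over the libraries left out it ran from 0 to 4. The median of 0.69 became 0.33 after centring on library medians and 0.51 after quantile normalization, and it ran from 0.61 to 0.76 over the libraries left out. In organoids relative to fresh cells the count became 2 at a mean of at least 5 RPKM, 1 with only the groups compared and 1 with the replicate block (Psma7, smallest adjusted p = 0.0403), and ran from 0 to 1 over the libraries left out. Replicates share only a number: deviations of same-numbered libraries correlated at 0.19 (fresh and 12 h), 0.22 (fresh and organoids) and 0.018 (12 h and organoids). The replicate block changed no other count of members and moved the calls over all genes from 878 to 722, from 1301 to 1422 and from 258 to 205. Between 12 h and organoids the count was 0 under every alternative run, and the median ran from −0.55 to −0.0042 over the libraries left out. In the main fit no test supported the fitted sign of any member. After centring, the sign differed from the reported one for 9, 5 and 11 of 39 members in the 3 comparisons (12 h with fresh, organoids with fresh, organoids with 12 h). After quantile normalization it differed for 6, 9 and 8, and without organoid replicate 1 for 18 in the last comparison. Without either fresh library 0 of all genes passed in any comparison. This was so at 12 h relative to fresh cells also without 12 h replicate 1, and between 12 h and organoids also with no filter, with only the groups compared, and without either 12 h library or organoid replicate 1. A count of 0 members in those settings says nothing of the members, and a pathway call lost there says nothing particular of that gene. The cause of these changes was not tested. Of the calls of pathway genes reported, those of Uchl5 at 12 h and of Nlrc5, Psmb8 and Psmg2 in organoids relative to fresh cells were lost when no filter on low values was used, and those of Psmg2 and Zfand5 with only the groups compared.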
